A study of Mus musculus with 6 samples.

Results

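Cytochrome c oxidase, complex IV of the respiratory chain, passes electrons from cytochrome c to oxygen and pumps protons across the inner mitochondrial membrane. Its catalytic core is encoded by mitochondrial DNA, and the surrounding small subunits are encoded in the nucleus, several of them by pairs of genes that are used in different tissues. The genes described here are the isoform genes of 5 such subunits, COX4, COX6A, COX6B, COX7A and COX8. They are Cox4i1, Cox4i2, Cox6a1, Cox6a2, Cox6b2, Cox7a1, Cox7a2, Cox7a2l, Cox8a and Cox8b, 10 of the 54752 genes listed in each table. They were chosen by name through the GENCODE M21 gene annotation, and each name matched 1 gene; gene positions are those of that annotation on GRCm38. Cox6b1, the ubiquitous partner of Cox6b2, was added as a reference for shares. It is also counted below among the other nuclear-encoded subunit genes.

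The data are RNA sequencing of 3T3-L1, a line derived from mouse embryo fibroblasts that can be differentiated into fat cells in culture. There were 3 libraries labelled adipocyte and 3 labelled preadipocyte, all with the strain label C57BL/6J, the tissue label Embryo and no treatment. A short medium description naming BCS, DMI and FBS was given alike for all 6 libraries, with no day of differentiation. The source name was Adipocyte for all of them, and only the sample titles and the cell type label tell the groups apart. All libraries come from 1 cultured line. Nothing in the labels says that replicates were grown separately, and the p-values then reflect the spread among these 6 libraries, which may be technical.

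The libraries held 23890582 to 26314076 expected counts (reads assigned to genes by the RSEM program) in adipocytes and 22496486 to 24444491 in preadipocytes. The 6 adipocyte markers Adipoq, Fabp4, Plin1, Cidec, Lipe and Retn were all higher in adipocytes and summed to 21336 to 24448 TPM (RSEM's transcript level, corrected for length and scaled to a fixed total per library), against 54.8 to 55.7 TPM in preadipocytes. The 5 preadipocyte markers Dlk1, Thy1, Pdgfra, Ly6a and Cd34 were all lower and summed to 160 to 205 TPM in adipocytes, against 4542 to 5530 TPM in preadipocytes. In the test described below, 35.7% of all tested genes were higher in adipocytes and 37.9% lower. In bulk RNA of this kind, a change in the number of cells that carry a transcript and a change in the amount per cell cannot be told apart.

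Cox4i1, Cox6a1, Cox6b1, Cox7a2 and Cox8a are the forms found in most tissues. Cox6a2, Cox7a1 and Cox8b are the heart and muscle forms in rodents, and Cox7a1 and Cox8b are also commonly used as markers of brown fat; in humans COX8B is a pseudogene. Cox4i2 is best known from lung and from hypoxic cells, Cox6b2 from testis, and Cox7a2l as a factor that joins complex III to complex IV in supercomplexes. The isoforms that moved most in these libraries were Cox7a1 and Cox8b, and their coding sequences are shown beside those of their ubiquitous partners because the reads of each pair have to be told apart by sequence. They were read 5′ to 3′ from the GENCODE M21 transcripts without the stop codon, and capitals mark bases that differ from, or have no aligned base in, the partner. The coding exons lie within chr7:30184231-30185964 (+) for Cox7a1, chr9:79755550-79759657 (-) for Cox7a2, chr7:140898991-140900342 (-) for Cox8b and chr19:7215392-7217512 (-) for Cox8a, all on GRCm38.
Cox7a1: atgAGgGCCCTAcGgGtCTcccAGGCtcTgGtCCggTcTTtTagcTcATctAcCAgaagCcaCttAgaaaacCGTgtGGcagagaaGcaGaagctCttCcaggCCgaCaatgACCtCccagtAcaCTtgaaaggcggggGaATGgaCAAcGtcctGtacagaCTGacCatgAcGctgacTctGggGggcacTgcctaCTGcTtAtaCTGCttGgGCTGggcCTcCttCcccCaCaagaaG
Cox7a2: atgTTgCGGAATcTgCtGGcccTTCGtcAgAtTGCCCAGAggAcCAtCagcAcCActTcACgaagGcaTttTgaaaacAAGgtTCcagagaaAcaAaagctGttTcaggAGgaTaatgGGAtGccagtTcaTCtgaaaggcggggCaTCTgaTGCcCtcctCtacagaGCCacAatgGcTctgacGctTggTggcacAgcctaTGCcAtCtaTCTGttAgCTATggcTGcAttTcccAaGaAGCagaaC
Cox8b: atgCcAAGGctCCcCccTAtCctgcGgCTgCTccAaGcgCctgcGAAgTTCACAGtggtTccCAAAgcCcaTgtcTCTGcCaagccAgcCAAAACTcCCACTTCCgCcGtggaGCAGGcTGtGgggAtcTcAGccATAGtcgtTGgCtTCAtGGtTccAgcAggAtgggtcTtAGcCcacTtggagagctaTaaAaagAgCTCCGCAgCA
Cox8a: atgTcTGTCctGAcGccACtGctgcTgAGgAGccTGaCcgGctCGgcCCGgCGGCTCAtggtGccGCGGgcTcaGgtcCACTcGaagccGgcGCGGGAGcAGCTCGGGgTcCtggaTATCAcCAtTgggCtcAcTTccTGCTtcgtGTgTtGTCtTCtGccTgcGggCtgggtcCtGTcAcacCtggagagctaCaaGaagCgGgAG

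Cox7a1 and Cox7a2 were identical at 61.7% of aligned coding bases, and Cox8b and Cox8a at 52.0%. The longest identical stretch was 12 bases in the COX7A pair and 10 bases in the COX8 pair. Across the 5 subunits the identity of an isoform with its ubiquitous partner ran from 52.0% to 64.9%, and no pair shared a stretch longer than 14 bases. No 31-base word of Cox8b, Cox8a, Cox7a1, Cox4i2 or Cox6b2 occurred in another annotated transcript on the same strand, whereas 16.6% of the 31-base words of Cox7a2l were shared with a processed pseudogene described with that gene.

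**Figure D1:**
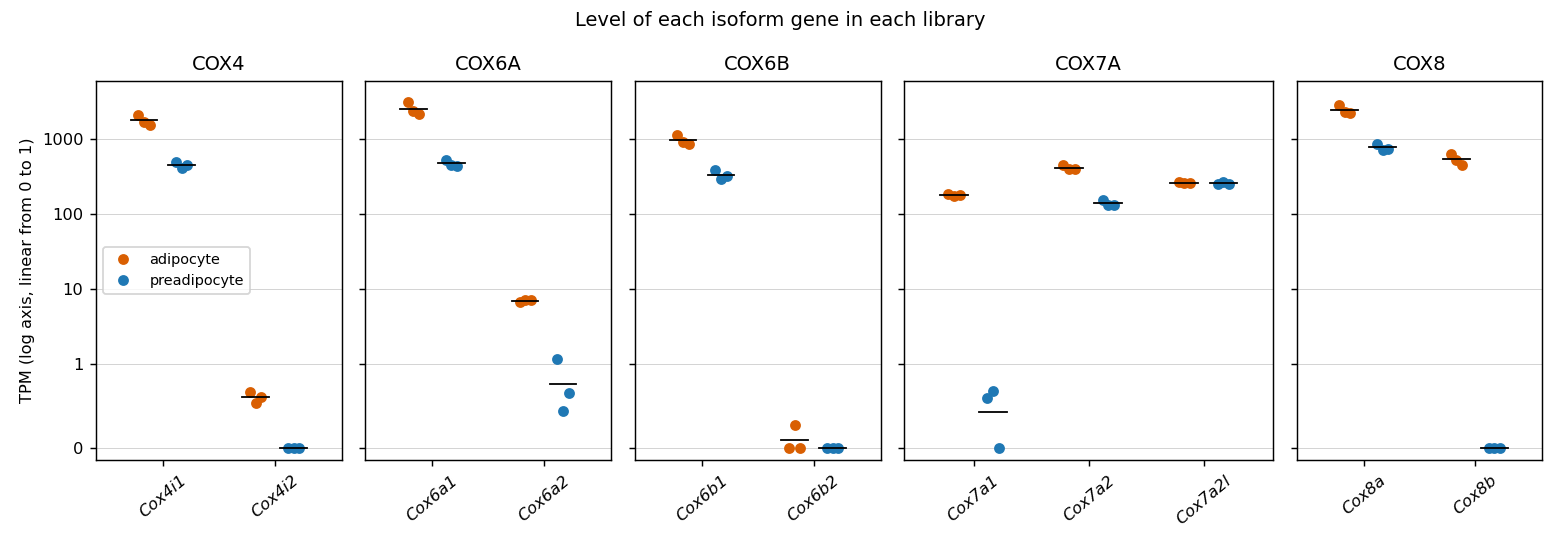
Level of each isoform gene in every library, in TPM on a log axis that is linear from 0 to 1, in 1 panel per subunit. Points are libraries (orange, adipocyte; blue, preadipocyte) and bars are group means; Cox8b stood at 454 to 649 TPM in adipocytes and at 0 in preadipocytes, while the 2 groups overlapped for Cox7a2l.

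Each of the 8 isoform genes with enough reads to be tested was higher in adipocytes, and Cox8b and Cox7a1 differed most. Cox4i2 and Cox6b2 fell below the low-count filter and have no test in the main fit. Of the tested genes, Cox6a2, Cox7a1 and Cox8b passed that filter only through their adipocyte reads, so they had to differ, and the count of 8 is a description. Over all 14726 genes tested with edgeR's quasi-likelihood test, 35.7% were higher and 37.9% lower at a Benjamini-Hochberg adjusted p of 0.05. The 2 groups' ranges of CPM (reads scaled by effective library size) did not overlap for 76.5% of the tested genes and for each of the 8 tested isoform genes. The median log2 fold change was 2.72 for the 8 isoform genes, against -0.06 for all tested genes, and it was the same with Cox8b at its lower bound. That median and the lack of overlap include Cox6a2, Cox7a1 and Cox8b, which had to differ, so both are descriptions too. Without those genes, the values were 2.50 for Cox4i1, 2.93 for Cox6a1, 2.09 for Cox7a2, 0.54 for Cox7a2l and 2.17 for Cox8a.

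Cox8b, the heart and muscle form of COX8 (chr7:140898945-140900446, minus strand), had 649, 537 and 454 TPM in the 3 adipocyte libraries and 0 TPM in all 3 preadipocyte libraries. These are 2294, 1695 and 1540 reads in adipocytes and no read in preadipocytes, so the groups were far apart. With a floor of 3 reads over the 3 preadipocyte libraries, Cox8b was at least 2136-fold higher in adipocytes (edgeR adjusted p = 2.06e-07). Because Cox8b passed the low-count filter only through its adipocyte reads, that p-value is a description. Only 10 tested genes had a larger fitted log2 fold change, a value that depends on the prior count for a gene with no reads in a group. By mean TPM, Cox8b ranked 238 of all listed genes in adipocytes.

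Its partner Cox8a, the ubiquitous form (chr19:7215153-7217616, minus strand), had 2865, 2344 and 2217 TPM in adipocytes, against 876, 722 and 755 TPM in preadipocytes. All adipocyte libraries lay above all preadipocyte libraries, with a log2 fold change of 2.17 (SE 0.15, edgeR adjusted p = 1.47e-06). Cox8b made up 18.5, 18.6 and 17.0% of the TPM of the COX8 pair in the 3 adipocyte libraries, a mean of 18.0% ± 0.89 (SD, n = 3), and 0% in each preadipocyte library. In preadipocytes, 0 of 12642 reads of the pair were from Cox8b, which allows up to 0.0237% of reads or 0.0466% per length. The groups did not overlap, and the exact permutation test over 3 against 3 libraries gave p = 0.10 (two-sided), the smallest that this design allows. Cox8b has a short effective length, 190.1 bases against 374 bases for Cox8a in adipocytes, and as a share of reads with no length correction it took 10.0% ± 0.51 in adipocytes and 0% in preadipocytes. A further COX8 gene, Cox8c, had no read in any library.

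The promoters of the COX8 pair are printed because the genes differed in whether preadipocytes had any reads at all. They run from 250 bases before to 50 after the start site on the minus strand, taken from RefSeq on GRCm38.p6, at chr7:140900397-140900696 for Cox8b and chr19:7217567-7217866 for Cox8a. Capitals mark the motif matches described below.
Cox8b promoter: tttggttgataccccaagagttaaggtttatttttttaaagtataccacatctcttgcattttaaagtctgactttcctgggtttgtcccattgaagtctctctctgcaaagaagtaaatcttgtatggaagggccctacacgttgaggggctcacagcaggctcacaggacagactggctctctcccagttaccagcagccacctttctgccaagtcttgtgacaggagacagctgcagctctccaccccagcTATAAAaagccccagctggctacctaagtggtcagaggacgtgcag
Cox8a promoter: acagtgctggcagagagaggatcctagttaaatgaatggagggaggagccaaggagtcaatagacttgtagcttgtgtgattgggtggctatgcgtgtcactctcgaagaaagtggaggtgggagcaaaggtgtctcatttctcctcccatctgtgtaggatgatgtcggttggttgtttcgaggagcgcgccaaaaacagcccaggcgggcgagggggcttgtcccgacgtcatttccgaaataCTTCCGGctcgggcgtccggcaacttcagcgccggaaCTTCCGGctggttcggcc

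The motifs searched were these, on both strands: TCAAGGTCA for estrogen-related receptors, GCATGCGC for NRF1, CCGGAAG for ETS factors including GABPA, CTATTTATA for MEF2, GTGGGAA for RBPJ and, added after the sequences had been seen, TATAAA for the TATA box. The Cox8a window held CCGGAAG on the opposite strand at positions -5 and 33, counted from 1 at the start site with no 0. The Cox8b window held none of the first 5 motifs and had TATAAA at position 5. That match lies after the annotated start site, not before it, and whether it acts as a TATA box was not tested. Of 32851 promoters of the same length, 8.86% held CCGGAAG and 13.6% held TATAAA. RefSeq windows were found for 8 of the 11 genes, and not for Cox4i1, Cox4i2 and Cox6a2. The Cox6a1 window held CCGGAAG at -16 and GCATGCGC once on each strand at overlapping positions -162 and -160, a motif found in 2.71% of promoters. The Cox6b1 window held CCGGAAG at -28, and the windows of Cox7a1, Cox7a2, Cox7a2l and Cox6b2 held no match to any motif. TCAAGGTCA, CTATTTATA and GTGGGAA occurred in 0.423%, 0.429% and 6.38% of all promoters and in none of the 8 windows.

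Cox7a1, the heart and muscle form of COX7A (chr7:30184144-30186078, plus strand), had 189, 177 and 181 TPM in adipocytes, against 0.60, 0.68 and 0 TPM in preadipocytes. This rested on 790, 660 and 723 reads in adipocytes and on 2, 2 and 0 reads in preadipocytes, so every adipocyte library lay far above every preadipocyte library. The pooled ratio per effective library size was 630 (exact 95% interval 246 to 2311, counting error only). The log2 fold change was 9.16 (SE 0.26, edgeR adjusted p = 8.65e-09), and 88 tested genes had a larger one. Cox7a1 too passed the low-count filter only through its adipocyte reads, so the p-value is a description.

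Cox7a2, the ubiquitous form (chr9:79755361-79759878, minus strand), had 456, 399 and 406 TPM in adipocytes, against 156, 134 and 132 TPM in preadipocytes, with no overlap. Its log2 fold change was 2.09 (SE 0.12, edgeR adjusted p = 5.07e-07). Cox7a2l, the supercomplex factor (chr17:83501918-83517330, minus strand), had 267, 261 and 263 TPM in adipocytes, against 257, 267 and 258 TPM in preadipocytes, and on that scale the groups overlapped. In TMM-scaled CPM, Cox7a2l averaged 187 ± 6.12 in adipocytes and 129 ± 4.10 in preadipocytes (SD, n = 3 each). There it rose by a log2 fold change of 0.54 (SE 0.070, edgeR adjusted p = 0.000110). With limma on log2(TPM + 1) the call was lost (log2 fold change 0.015, SE 0.060, adjusted p = 0.82), a scale on which the median of all tested genes was itself moved by -0.48, and with total counts as the only scaling it was 0.21 (edgeR adjusted p = 0.017).

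**Figure D2:**
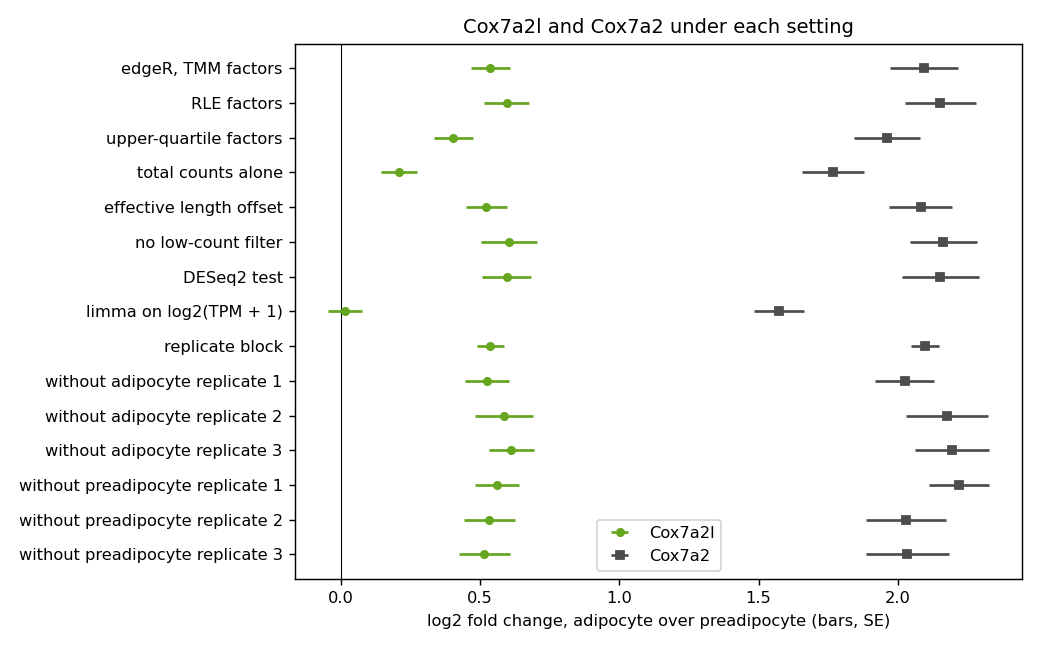
Log2 fold change, adipocyte over preadipocyte, of Cox7a2l (green circles) and Cox7a2 (grey squares) under the main fit and each of the 14 alternatives, with bars for the SE. Cox7a2l ran from 0.015 with limma on log2(TPM + 1) to 0.61 without adipocyte replicate 3, and Cox7a2 stayed between 1.57 and 2.22.

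Within COX7A, all 3 isoforms held shares that did not overlap between adipocytes and preadipocytes. Cox7a1 held 20.8, 21.2 and 21.2% of the TPM of the 3 genes in adipocytes, against 0.145, 0.169 and 0% in preadipocytes, means of 21.1% ± 0.25 and 0.105% ± 0.0915 (SD, n = 3 each). Cox7a2 held 48.5% ± 1.30 in adipocytes and 35.0% ± 2.42 in preadipocytes. Cox7a2l held 30.5% ± 1.05 in adipocytes and 64.9% ± 2.45 in preadipocytes. In TPM as deposited it was the most abundant of the 3 in preadipocytes and Cox7a2 was in adipocytes. That order depends on how the pseudogene described below is counted. Each of these shares had an exact permutation p of 0.10 (two-sided), the smallest possible here. In all, 7 isoform shares were compared in this way, with no adjustment of p. The log2 ratio of Cox7a2l to Cox7a2 in TPM was -0.67 ± 0.088 in adipocytes and 0.89 ± 0.15 in preadipocytes (SD, n = 3 each).

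The size of the Cox7a1 share depended on what it was a share of. Cox7a1 had an effective length of 224 bases in adipocytes, against 485 bases for Cox7a2 and 904 bases for Cox7a2l, and as a share of reads it took 8.47% ± 0.0882 in adipocytes and 0.0309% ± 0.0269 in preadipocytes. Among Cox7a1 and Cox7a2 alone it took 30.3% ± 0.81 of the TPM in adipocytes and 0.296% ± 0.264 in preadipocytes. By reads, Cox7a2l made up more than Cox7a2 in both groups, 49.4% against 42.2% in adipocytes and 77.5% against 22.5% in preadipocytes.

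Cox7a2l shares sequence with the processed pseudogene Gm6969 on chromosome 12, of whose 31-base words 78.2% also occur in Cox7a2l. Gm6969 was assigned 2840 reads in adipocytes and 2292 in preadipocytes, equal to 22.4% and 22.7% of the reads of Cox7a2l, so the split of reads between the copies is uncertain. Its log2 fold change of 0.52 (SE 0.16, edgeR adjusted p = 0.018) was close to that of Cox7a2l. Gm6969 is short, and over its own length it had 309 ± 46.2 TPM in adipocytes and 306 ± 41.9 TPM in preadipocytes (SD, n = 3 each). The reads of Gm6969, divided by its own effective length, were then added to Cox7a2l. Cox7a2l held 48.7% ± 0.60 of COX7A in adipocytes and 80.1% ± 0.58 in preadipocytes. Cox7a2 held 35.8% in adipocytes and 19.9% in preadipocytes, so Cox7a2l was the most abundant in both groups when counted this way. The Cox7a1 share became 15.5% in adipocytes and 0.0596% in preadipocytes. All of these shares depend on the short length used for Gm6969. Reads that came from Cox7a2l itself would belong over its own, longer effective length, and shares counted in that way were not taken.

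**Figure D3:**
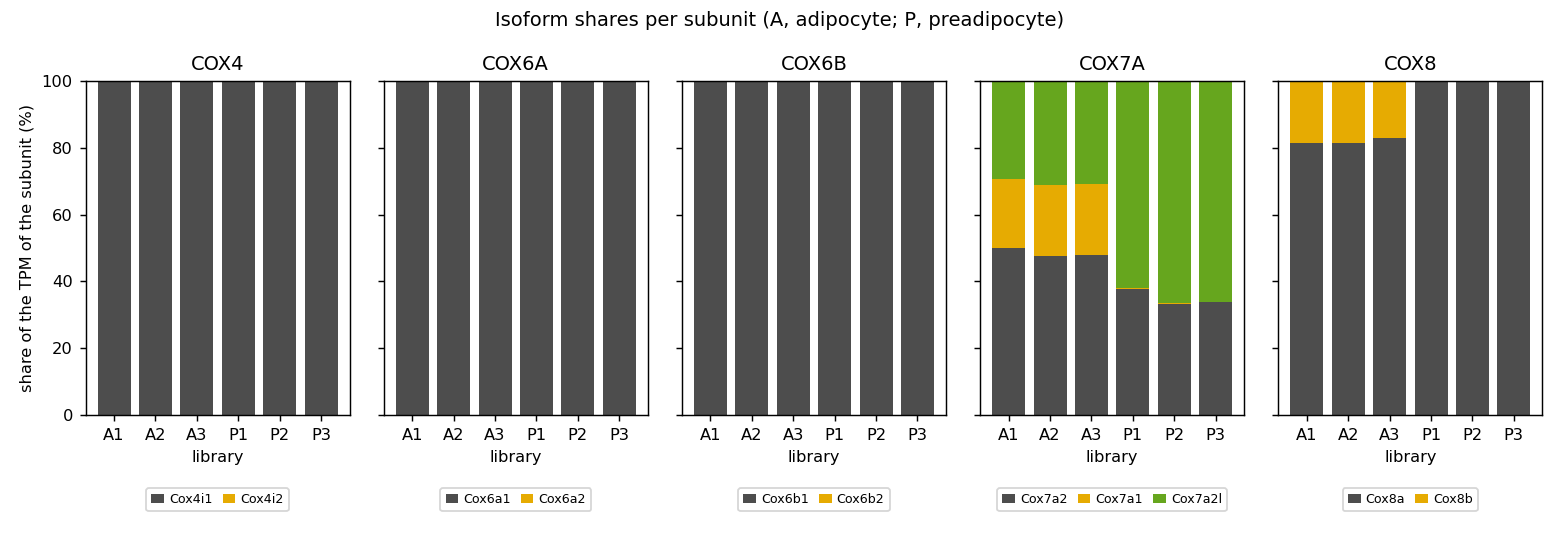
Share of each isoform in the summed TPM of its subunit, in percent, for the 3 adipocyte libraries (A1 to A3) and the 3 preadipocyte libraries (P1 to P3). Cox8b took 17.0 to 18.6% of COX8 in adipocytes and 0% in preadipocytes and Cox7a1 20.8 to 21.2% of COX7A in adipocytes, while the second isoform of COX4, COX6A and COX6B stayed below 1% in every library and is too thin to see.

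Cox6a1, the ubiquitous form of COX6A (chr5:115345642-115348981, minus strand), had the highest mean TPM of the isoform genes in adipocytes, above Cox8a in replicates 1 and 2 and below it in replicate 3, with 3146, 2358 and 2208 TPM, against 539, 458 and 447 TPM in preadipocytes. The groups did not overlap, and the log2 fold change was 2.93 (SE 0.18, edgeR adjusted p = 6.42e-07). Of its 31-base words, 18.5% also occur elsewhere in the annotated transcripts, in sequence whose counts were not analysed here. Cox6a2, the heart and muscle form (chr7:128205435-128206387, minus strand), had 6.86, 7.29 and 7.19 TPM in adipocytes, against 1.20, 0.44 and 0.66 TPM in preadipocytes, from 65, 62 and 65 reads and from 9, 3 and 5 reads. It rose by a log2 fold change of 3.68 (SE 0.30, edgeR adjusted p = 5.40e-06), again with no overlap. As Cox6a2 passed the low-count filter only through its adipocyte reads, this call is a description. Its share of COX6A nevertheless overlapped between the groups, at 0.218, 0.308 and 0.325% in adipocytes and 0.222, 0.0960 and 0.148% in preadipocytes (exact permutation p = 0.20, two-sided). The log2 ratio of Cox6a2 to Cox6a1 was -8.48 ± 0.31 in adipocytes and -9.41 ± 0.61 in preadipocytes (SD, n = 3 each), a difference with an exact permutation p of 0.20. The Cox6a2 gene lies within Itgad on the opposite strand, and Itgad had 1 read in adipocytes and 2 in preadipocytes over all libraries.

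Cox4i1, the ubiquitous form of COX4 (chr8:120668222-120674207, plus strand), had 2126, 1699.8 and 1562 TPM in adipocytes, against 497, 413 and 453 TPM in preadipocytes. It rose by a log2 fold change of 2.50 (SE 0.15, edgeR adjusted p = 7.76e-07), with no overlap. Cox4i2, the lung and hypoxia form (chr2:152754173-152765037, plus strand), had 0.67, 0.54 and 0.61 TPM in adipocytes from 7, 5 and 6 reads, against no read in preadipocytes. With the 18 adipocyte reads taken as exact and a floor of 3 reads over preadipocytes, it was at least 6.95-fold higher in adipocytes. Cox4i2 had no test in the main fit. Its share of COX4 was 0.0341% ± 0.00428 of TPM in adipocytes (n = 3), and 18 of 54845 reads of the pair gave 0.0328% (exact 95% interval 0.0195 to 0.0519%). In preadipocytes, 0 of 11181 reads allow up to 0.0268% of reads, which lies within that interval. The exact permutation p for the share was 0.10. Cox4i1 overlaps Emc8 on the opposite strand, and whether the counting used strand is not given in the sources used here. Emc8 had 4985 reads in adipocytes and 2291 in preadipocytes over the 3 libraries of each group, against 54827 and 11181 reads for Cox4i1.

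Cox6b2, the testis form of COX6B (chr7:4751792-4753094, minus strand), had 1 read in adipocyte replicate 2 and none in the other 5 libraries. In preadipocytes, 0 of 5583 reads of the pair allow up to 0.0537% of reads, and no fold is given. Its partner Cox6b1 had 1159, 914 and 870.4 TPM in adipocytes, against 392, 296 and 321 TPM in preadipocytes, with a log2 fold change of 2.06 (SE 0.15, edgeR adjusted p = 2.50e-06). COX6B transcripts in both groups were thus nearly all from the ubiquitous gene.

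Ordered by mean TPM in adipocytes, Cox6a1 (2571 TPM) and Cox8a (2475 TPM) came first with overlapping libraries. Cox4i1 (1796 TPM) followed without overlap, and then Cox8b (546 TPM) and Cox7a2 (420.4 TPM), whose libraries overlapped. Cox7a2l (264 TPM), Cox7a1 (182 TPM), Cox6a2 (7.11 TPM) and Cox4i2 (0.607 TPM) each lay apart from the one before. In preadipocytes the order was Cox8a (784 TPM), Cox6a1 (481 TPM) and Cox4i1 (454 TPM), of which Cox6a1 and Cox4i1 overlapped. Cox7a2l (261 TPM) and Cox7a2 (141 TPM) came next, and Cox6a2 (0.767 TPM) and Cox7a1 (0.427 TPM) overlapped at the low end.

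Summed over isoforms, each of the 5 subunits had more transcript in every adipocyte library than in any preadipocyte library, but by different amounts. COX6A had 2578 ± 504 TPM in adipocytes and 482 ± 51.0 TPM in preadipocytes (SD, n = 3 each), a ratio of 5.35. COX7A had 866 ± 39.7 TPM in adipocytes and 402 ± 11.9 TPM in preadipocytes, a ratio of 2.15 with Cox7a2l included. Cox7a2l itself averaged 264 TPM in adipocytes and 261 TPM in preadipocytes, which lowers that ratio, and the ratio without it was not taken. The ratios of COX4, COX8 and COX6B lay between those of COX6A and COX7A, at 3.95, 3.85 and 2.92.

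**Figure D4:**
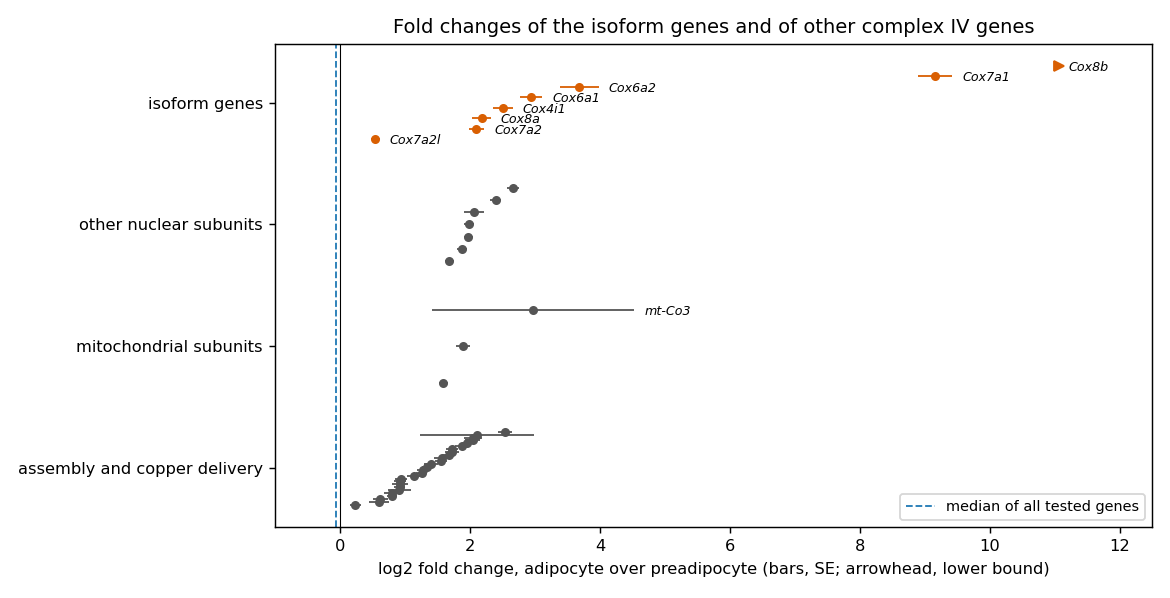
Log2 fold change, adipocyte over preadipocyte, of the 8 tested isoform genes and of the other complex IV subunit and assembly genes, with bars for the SE and a dashed line at the median of all tested genes, -0.06. The arrowhead is the lower bound for Cox8b, 11.06; Cox7a1 stood at 9.16, and the other nuclear subunits lay between 1.68 and 2.66.

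The other genes of complex IV were also higher in adipocytes, most of them by less than Cox6a1. Over all tested genes, 35.7% were higher. All 7 other nuclear-encoded subunit genes, among them Cox6b1, rose, with a median log2 fold change of 1.98. They ran from 1.68 for Cox6c to 2.66 for Cox5b, and the most abundant of them, Ndufa4, rose by 1.87. Of the 3 mitochondrially encoded core subunits, mt-Co1 rose by 1.58 and mt-Co2 by 1.89, and mt-Co3 did not pass (2.97, SE 1.56, edgeR adjusted p = 0.115). Of 26 genes for assembly of the complex and delivery of copper to it, 25 rose on TMM-scaled counts and 1, Pet117, did not pass, with a median of 1.30. In TPM, 21 of those 25 lay higher in every adipocyte library than in any preadipocyte library, and Coa3, Coa4, Sco2 and Slirp overlapped between the groups. In CPM the groups did not overlap, in either direction, for 76.5% of all tested genes, and that share was not taken in TPM. Among the assembly genes Taco1, which activates translation of the mt-Co1 message, rose by 2.53 and the most abundant, Cox14, rose by 1.72. Slirp, which stabilises mitochondrial messages, had the smallest fold change on counts, 0.23 (SE 0.081, edgeR adjusted p = 0.029), but averaged 73.9 ± 10.4 TPM in adipocytes and 87.3 ± 10.5 TPM in preadipocytes (SD, n = 3 each), so its direction turned with the scale.

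Of 13 listed regulators of mitochondrial biogenesis 11 were tested, 5 rose, 3 fell and 3 did not pass, with a median of 0.098. These counts are near the background over all tested genes, of which 35.7% were higher and 37.9% lower. The coactivator Ppargc1b rose by 5.12 and the nuclear receptor Esrra by 2.76, while the coactivator Pprc1 fell by 0.89 and the GABP subunits Gabpb1 and Gabpb2 fell by 0.50 and 0.39. Of 13 hypoxia-responsive genes, listed because Cox4i2 is known from hypoxic cells, 11 were tested and 8 rose and 3 fell, with a median of 2.22. The mitophagy receptor Bnip3 rose by 4.75 and Ldha, the lactate dehydrogenase subunit, by 3.16, whereas Adm, Slc2a1 and P4ha1 fell by 4.05, 0.97 and 0.28.

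Because Cox6a2, Cox7a1 and Cox8b are muscle forms, markers of muscle were read in the same libraries. The 15 skeletal and heart muscle markers summed to 5.45 to 6.83 TPM in adipocytes and 2.68 to 3.87 TPM in preadipocytes. Myod1, Myog, Myf5, Actc1, Ckm, Myh2 and Myh4 had 0 reads in all 6 libraries. Of the 3 that could be tested, the myoglobin gene Mb rose by 7.32 on the log2 scale and Acta1 by 4.03, and Tnnt3 fell by 3.37. Their reads were almost all in 1 group, 193 in adipocytes and 1 in preadipocytes for Mb and 5 and 64 for Tnnt3, and such genes pass the low-count filter only through that group, so these calls are descriptions. The same holds for Cidea and Elovl3 among the fat markers. Of 9 brown and beige fat markers, which include Cidea, Elovl3, Ppargc1a and Ebf2, those 4 were tested and rose, by 7.86, 7.16, 1.22 and 1.13. For comparison, 35.7% of all tested genes were higher and 37.9% lower. Ucp1, the brown fat uncoupling protein, had 1 read in adipocytes and 0 in preadipocytes, and Prdm16 had 0 reads in adipocytes and 1 in preadipocytes. The untested Tmem26, a beige fat marker, had 1 read in adipocytes and 30 in preadipocytes, and Dio2 had 1 and 3. The list summed to 27.2 to 32.4 TPM in adipocytes and 13.0 to 15.2 TPM in preadipocytes, below the level of Cox7a1 alone in adipocytes. Testis markers, read because of Cox6b2, summed to 0.09 to 0.33 TPM in adipocytes and 0.90 to 0.93 TPM in preadipocytes. What part these markers' changes had in the isoform results was not tested.

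The genes with profiles closest to the isoforms were found by the Euclidean distance between log2(CPM + 1) values over the 6 libraries, each gene centred on its mean, among 12441 tested protein-coding genes. For Cox8b these were Nat8l, which makes N-acetylaspartate, at a distance of 0.172, and Tst, a mitochondrial sulfurtransferase, at 0.202. For Cox7a1 they were Rnf144b, a ubiquitin ligase gene, at 0.130 and Fasn, the fatty acid synthase gene, at 0.133. For the ubiquitous forms they were Ptges2 and the complex III gene Uqcrc1 for Cox6a1, Mgst3 for Cox4i1, Tha1 and Fmc1 for Cox8a, and Txnrd2 and Mtfp1 for Cox7a2, at 0.0821 to 0.126. For Cox4i2, whose values hardly leave 0, they were Slc7a6 and Mlec, at 0.0334 and 0.0482. These distances describe 6 libraries in 2 groups.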

How the data were processed

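Per the file headers, the authors deposited 1 RSEM gene table per library with expected counts, effective lengths in bases and TPM, which is scaled per length to a fixed total within each library. The submitters' processing notes name RSEM, Bowtie, Bowtie2, DESeq2 and the build GRCm38 (mm10), with no roles or versions; for aligner settings and strandedness, the sources used here give nothing. Of 54752 gene IDs, 54723 matched GENCODE M21.

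Expected counts were rounded and tested in R 4.3.3 with edgeR 4.0.16 (TMM factors 0.880 to 0.902 in adipocytes and 1.11 to 1.13 in preadipocytes, filterByExpr, quasi-likelihood F-test, group as the only term), with Benjamini-Hochberg adjustment over 14726 genes. The SE is the one implied by the F statistic. Shares were taken from the deposited TPM and compared with exact permutation tests, and intervals, ratios and floors of 3 reads cover counting error only. The interval of the Cox7a1 ratio and the bounds from a floor of 3 reads take the adipocyte reads as exact. Sequence sharing was counted as 31-base words in the GENCODE M21 transcripts, and coding sequences were aligned with Biopython 1.88. The test was run on simulated data first. Alternatives were run with limma 3.58.1, DESeq2 1.42.0 and other settings.

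Genes named besides the isoforms were, per list, the largest rise and fall, the most abundant and, where there were any, those against the majority, plus the 2 closest profiles, of which 1 is not reported here; further marker genes were named after their values were seen. The isoform genes and all lists were chosen with earlier results of these data known. Same-numbered libraries deviated together from their group means, with correlations of 0.66, 0.30 and 0.26 for numbers 1, 2 and 3. The unmatched pairs of adipocyte 3 with preadipocyte 2 and adipocyte 2 with preadipocyte 3 had 0.45 and 0.16, so the match is not specific to the number for these. By the rule that each pair exceed 0.1, the replicate numbers were treated as pairs in an alternative fit, although the labels give no reason for pairing. No libraries were duplicates: the smallest chi-square per degree of freedom between 2 libraries was 2.85. That was between preadipocyte replicates 2 and 3, which were closer than the other pairs within a group, at 14.2 to 36.2.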

Additional observations from a re-analysis of the deposited data

How the results depend on the processing

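Across 14 alternative settings, 111 of 112 log2 fold changes of the 8 tested isoform genes kept their direction and their side of the threshold, and none reversed. For Cox6a2, Cox7a1 and Cox8b this had to be so, since they passed the low-count filter only through their adipocyte reads. The exception among the 112 was Cox7a2l with limma on log2(TPM + 1), 0.015 (adjusted p = 0.82). Under the other 13 settings Cox7a2l lay between 0.21 and 0.61. That scale also gave 3266 genes higher in adipocytes, against 5252 in the edgeR fit, and 8328 lower, against 5575, and the cause was not tested. With the replicate block the Cox7a2l value was 0.54 (edgeR adjusted p = 4.57e-07), and the block changed no isoform call. Leaving out each library in turn gave 8 isoform genes higher and 4929 to 5466 genes higher in all. With limma on log2(TPM + 1), 7 isoform genes were higher. Without the low-count filter 9 were, so a gene that had no test in the main fit was called there on few reads. As shares of reads, the difference between adipocytes and preadipocytes was 8.44 percentage points for Cox7a1, -28.1 for Cox7a2l and 10.0 for Cox8b; the effective lengths differ between isoforms. For Cox7a1 it was 30.0 points against Cox7a2 alone and 15.5 with the pseudogene added over its own length, where Cox7a2l was at -31.4. With TPM raised by 1 before the share was taken, Cox4i2, Cox6a2 and Cox6b2 changed sign to -0.130, -0.0396 and -0.186 points, since the added unit is large beside levels near 0. Leaving out 1 library moved the share differences within 17.7 to 18.5 points for Cox8b, 20.9 to 21.1 for Cox7a1, -35.9 to -33.7 for Cox7a2l, 0.0988 to 0.162 for Cox6a2, 0.0316 to 0.0354 for Cox4i2 and 0 to 0.0148 for Cox6b2. The low counts of Cox4i2 and Cox6b2 limit what can be said of them.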

Other observations

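Electron carriers, supercomplex factors and the complex III assembly genes Uqcc1, Uqcc2 and Uqcc3, read as 1 list, also differed. Of 7 listed genes 6 were tested, 5 rose and 1 fell, with a median log2 fold change of 1.77. Over all tested genes, 35.7% were higher and 37.9% lower. Cycs, the somatic cytochrome c that feeds complex IV, had 108, 125 and 144 TPM in adipocytes, against 12.9, 14.8 and 13.6 TPM in preadipocytes (log2 fold change 3.81, SE 0.13, edgeR adjusted p = 1.89e-08). Its testis form, Cyct, had 0 reads in every library. Uqcc2, an assembly factor of complex III, was the member that fell, by 0.30 (SE 0.083, edgeR adjusted p = 0.0093).

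The mt-Co3 values were uneven among preadipocyte libraries, with 749.8, 725 and 1136 TPM in adipocytes and 0.29, 0.32 and 484 TPM in preadipocytes, so that preadipocyte replicate 3 alone was near the adipocyte range. Pet117, the other complex IV gene that did not pass, had 0.78, 5.26 and 5.85 TPM in adipocytes and 0, 3.12 and 0.93 TPM in preadipocytes, with overlap.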
